A study of Mus musculus with 12 samples.

Results

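Bone marrow derived macrophages (BMDMs) were exposed to medium conditioned by NB9464 neuroblastoma cells, together with R788, a drug directed against the kinase Syk. The genes that changed with this medium are described here. The response was read from 4 of the 12 libraries of the series, chosen by their labels. Of these, 2 libraries (SJ9 and SJ10) were from BMDMs given NB9464 tumor-conditioned medium (TCM) together with R788, and 2 (SJ7 and SJ8) were from BMDMs given R788 and no TCM. Every gene that reached 10 counts in 2 or more of the 12 libraries was followed, which left 16281 of the 54232 genes listed. The cells came from C57BL/6 mice with no engineered allele named, had been cultured for 5 days, and were then treated for 24 h, with R788 at 500 nM. R788 (fostamatinib) is a prodrug of a Syk inhibitor. For comparison, use was made of cells with neither TCM nor R788 (NS; SJ1 and SJ2), with NB9464 TCM and no R788 (SJ3 and SJ4), and with NBT3L TCM + R788 (SJ11 and SJ12). NB9464 is a mouse neuroblastoma line with amplified MYCN, and NBT3L is a mouse line without that amplification. As the study describes, serum-free DMEM was left on NB9464 cells for 48 h to give the TCM. The base medium of cells without TCM and the solvent of R788 were not stated, so tumor-derived factors and a change of base medium or serum cannot be told apart. The labels do not say whether both libraries of a group came from separate mice or cultures, so the p-values measure only the spread between these libraries, which may be technical.

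Syk is a tyrosine kinase that docks on phosphorylated ITAM motifs of adaptors such as FcRgamma and DAP12. In macrophages it passes on signals from Fc receptors, C-type lectins and TREM receptors to Vav, PLCgamma2, the Card9 complex and PI3 kinase. Medium from tumor cells carries cytokines, growth factors, lipids and metabolites, and macrophages can answer it with inflammatory, metabolic and growth programs. An inhibitor acts on the protein, and transcript counts do not show how far Syk activity was blocked. The comparison of NB9464 TCM + R788 with R788 asks which transcripts the tumor medium still raised or lowered with the inhibitor present.

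Total counts of the 4 libraries lay between 47020651 and 56449685, and those of all 12 between 44977847 and 56449685. Library SJ8, in the R788 group, had the highest total and 16149 genes with at least 1 count, against 17275 to 18343 in the other libraries. The standard deviation of the log2 difference between replicates over 11500 genes was 0.503 for SJ7 and SJ8, and between 0.299 and 0.339 for the other 5 pairs. Values without SJ8 are therefore given for the main counts. The chi-square per degree of freedom between replicates lay between 7.73 and 37.6, so that no pair looked like the same library deposited again. All 12 macrophage markers checked, among them Adgre1 (F4/80), Csf1r and Lyz2, were present in every library, with 8 higher and 4 lower after NB9464 TCM. Among 13 neuroblastoma markers, Th, Dbh, Chga and Stmn2 were at 0 in all 4 libraries. The summed neuroblastoma markers were 104 and 160 normalized counts with TCM and 42.7 and 65.5 without, with Mycn (22.9 and 41.1 against 0 and 0) and Hand2 called higher, Ret lower, and their part in the results was not tested. Summed T and NK cell markers were 61.7 and 62.2 with TCM and 131 and 178 without, and of these Cd4 (25.9 and 8.89 against 95.4 and 160) was the gene called lower. Summed neutrophil markers were 13582 and 13167 with TCM and 9241 and 8047 without, with S100a8 and Csf3r called higher and Ngp and Mpo lower. Dendritic cell marker sums were 123 and 81.1 with TCM and 36.4 and 38.3 without, with Xcr1 called higher. Mast cell and basophil sums were 43.9 or less. Fibroblast and endothelial sums lay between 2912 and 3986, but single members moved in opposite directions. Pecam1 (872 and 844 against 57.3 and 17.6) and Lum were called higher, and Kdr (41.8 and 31.1 against 646 and 962), Col1a1 and Col1a2 lower. The B cell markers Ms4a1 and Pax5 were at 0 in the 4 libraries, and the B cell sum, 524 and 454 with TCM against 94.5 and 139, was mainly Cd79b (522 and 437 against 67.3 and 139). These are bulk samples, in which fewer cells of a type and less RNA per cell cannot be told apart.

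NB9464 TCM changed a large share of the macrophage transcriptome in the presence of R788. Of the 16281 genes, 3378 (20.7%) were called higher and 3198 (19.6%) lower, 6576 (40.4%) together, at an adjusted p under 0.05 (DESeq2 Wald test, Benjamini-Hochberg). A change of at least 2-fold was reached by 1142 of the genes called higher (7.01% of those tested) and 1132 of the genes called lower (6.95%). Without SJ8, 2963 (18.2%) and 2643 (16.2%) were called (34.4% together), and 2702 of the 3378 and 2498 of the 3198 calls remained in the same direction, with 0 called the other way. The median log2 fold change of all genes tested was 0.00.

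**Figure D1:**
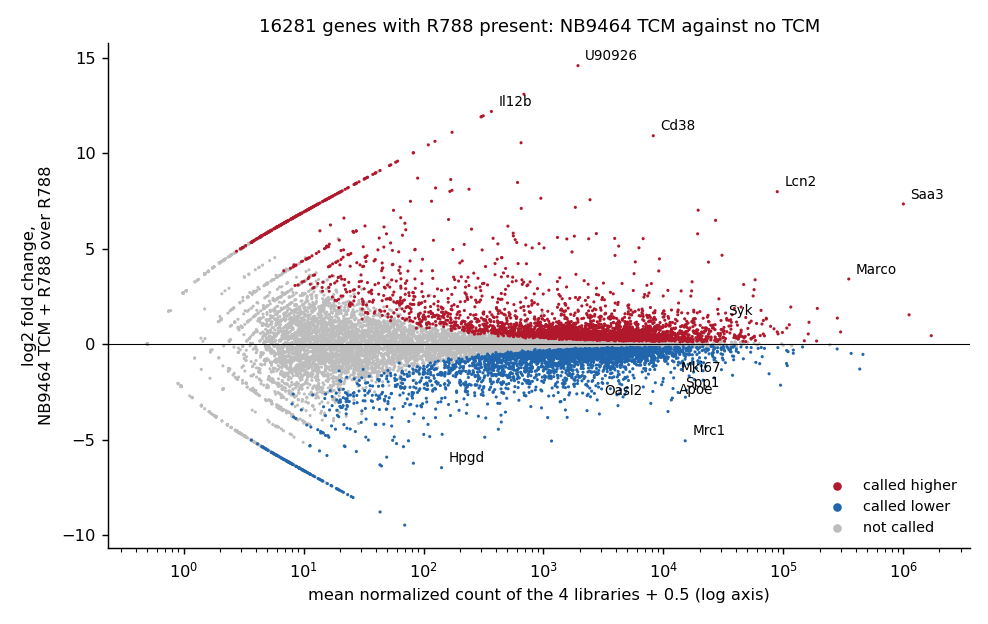
Each point is a tested gene, with the mean normalized count of the 4 libraries (plus 0.5, log axis) on the x axis and the log2 fold change of NB9464 TCM + R788 over R788 on the y axis. Red genes were called higher, blue genes lower and gray genes were not called; Saa3 and Marco combine a high level with a large rise, and the straight streaks at low counts are genes listed at or near 0 in 1 of the groups.

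The largest rises were in genes that were silent or nearly silent with R788 alone. U90926 (chr5:92209893-92215408, mm10), a small gene switched on in stimulated macrophages, had 3966 and 3790 normalized counts in SJ9 and SJ10 and 0 in both R788 libraries. Against a floor of 3 counts per library it was at least 1514-fold higher (adjusted p = 9.2e-23). Il12b (chr11:44400063-44414033), which encodes the p40 chain shared by IL-12 and IL-23, had 725 and 744 normalized counts against 0 and 0, at least 287-fold higher (adjusted p = 7.3e-16). The partner chain Il12a went from 0 and 0 to 594 and 663 and was at least 245-fold higher (adjusted p = 2.5e-15). Cd38 (chr5:43868553-43912375), an ectoenzyme that consumes NAD, had 16072 and 16818 normalized counts against 7.27 and 9.58. The log2 fold change of Cd38 was 10.92 ± 0.51 (SE, n = 2 libraries per group, adjusted p = 3e-98). Both TCM libraries stood far above both libraries without TCM for each of these genes. The rule that chose the 10 largest rises required the same direction in all library pairs. Here and below, such separation only describes genes named for their changes, and its share over all genes is not given. Draxin, at least 536-fold higher, Shisa3 (at least 239-fold), Fcrl5 (at least 235-fold), Nhs (at least 135-fold) and Hif3a (at least 96.9-fold) were likewise at 0 in both R788 libraries. Zfp811 had 1236 and 1362 normalized counts against 1.82 and 0 and was at least 507-fold higher. Shisa3 shares exonic bases on the opposite strand with the expressed gene Atp8a1, and whether counting used the strand was not stated.

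The largest falls included an endocytic receptor, a prostaglandin-degrading enzyme and a sialyltransferase. Mrc1 (chr2:14229392-14332057), the mannose receptor CD206, had 888 and 872 normalized counts in SJ9 and SJ10 against 27830 and 31158 in SJ7 and SJ8. Its log2 fold change was -5.07 ± 0.08 (SE, edgeR adjusted p = 1.8e-16), and the groups were far apart. Hpgd (chr8:56294585-56321043), which inactivates prostaglandins, had 3.98 and 2.22 against 316 and 241 and fell by 6.47 on the log2 scale (SE 0.78, adjusted p = 1.6e-15). St6gal1, a sialyltransferase, fell by 5.08, and the vascular endothelial growth factor receptor gene Kdr fell by 4.46. Cd300lg, Tnfsf8, Lama3, Rgs7bp, Abcb1a and Reps2 completed the set of 10, with log2 fold changes between -4.88 (Cd300lg) and -4.08 (Reps2). The call of Abcb1a was not reached when only the 4 libraries were fitted.

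Syk itself was raised by the tumor medium. Syk (chr13:52583173-52648792) had 41094 and 43780 normalized counts with NB9464 TCM + R788 and 18344 and 17601 with R788, a log2 fold change of 1.24 ± 0.05 (SE, adjusted p = 3.4e-129). The lower TCM library was above the higher R788 library by a wide margin. Of 22 genes for Syk, its adaptors, partner kinases and effectors, 12 were called higher and 7 lower, with a median log2 fold change of 0.26, against shares of 20.7% and 19.6% of all genes and a median of 0.00. The counts of the lists that follow are to be read against the same shares. These shares include genes with few counts, which are harder to call. When a mean of at least 50 counts was required, 3180 genes were still called higher and 3167 lower. The shares may thus be low for genes expressed as highly as most list members. The higher genes included the ITAM adaptor Fcer1g (75812 and 74641 against 37960 and 27270; 1.21), the exchange factor Vav1 (1.19), and the adaptors Pik3ap1 (1.36) and Blnk (1.44). Vav3 had 1747 and 1764 normalized counts against 3616 and 3894 and fell by 1.10 on the log2 scale (adjusted p = 9.5e-23). The phospholipase Plcg2 fell by 0.32 and the lipid phosphatase Inpp5d by 0.49, and 3 of the 22 were not called.

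Receptors that signal through Syk moved in both directions, 9 of 16 called higher and 5 lower, with a median log2 fold change of 0.35. Clec4e (Mincle), a receptor for mycobacterial and damage-derived lipids, had 99341 and 100796 normalized counts against 14843 and 12803, a log2 fold change of 2.86 ± 0.06 (edgeR adjusted p = 2.3e-15). The activating Fc receptors Fcgr4 (5407 and 5097 against 1369 and 1257) and Fcgr1 (1.16) rose, as did Trem3 (2.38). Trem2, a lipid-sensing receptor of tissue macrophages, fell from 34070 and 33312 to 9302 and 8919, a log2 fold change of -1.89 ± 0.07 (adjusted p = 1.1e-174). Fcgr3 fell by 1.03. In each of these the libraries of the groups did not overlap.

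Cytokine transcripts rose as a group. Of 17 tested, 12 were called higher and 2 lower, and the median log2 fold change was 1.88. Il6 went from 0 and 0 to 227 and 210 normalized counts, at least 85.3-fold higher (adjusted p = 9.5e-12). Csf3, the granulocyte growth factor G-CSF, had 1152 and 1270 against 7.27 and 0 (log2 fold change 8.47 ± 0.52). Il1a had 1362 and 1228 against 7.27 and 11.2 (7.12 ± 0.33), and Il1b 569 and 580 against 65.4 and 60.7 (3.19 ± 0.16). These 4 inflammatory cytokines were at or near 0 with R788 alone, apart from Il1b, and clearly present in both TCM libraries. Tnf rose from 2327 and 2052 to 8185 and 7957 (1.88 ± 0.07, adjusted p = 6.2e-138). The anti-inflammatory Il10 rose as well, from 81.8 and 75.8 to 912 and 941 (3.56 ± 0.20, adjusted p = 1.6e-67), and the IL-1 receptor antagonist Il1rn rose by 1.70. Il15 fell from 738 and 823 to 292 and 242 (-1.54 ± 0.20).

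Of 21 chemokines, 9 were called higher and 5 lower, with a median log2 fold change of 0.44. The neutrophil-attracting CXC genes were among the higher: Cxcl3 had 4928 and 4391 normalized counts against 151 and 52.7 (log2 fold change 5.52 ± 0.39), Cxcl1 3333 and 3347 against 125 and 110 (4.83 ± 0.12), and Cxcl5 626 and 614 against 20.9 and 51.9 (4.07 ± 0.24). Cxcl2 rose by 3.18. Ccl5, which attracts T cells and monocytes, had 8342 and 8136 against 299 and 170 (5.14 ± 0.23, adjusted p = 1.9e-106), and Ccl3 had 17823 and 17602 against 843 and 758 (4.47 ± 0.07). All of these were higher in both TCM libraries than in both libraries without TCM. Ccl6 fell from 12709 and 10310 to 5188 and 5103 (-1.16 ± 0.08). Cxcl10, an interferon-induced attractant of T cells, had 103 and 42.2 against 180 and 143 (-1.14 ± 0.31, adjusted p = 0.00083), and its call was lost without SJ10 (-0.64) and when only the 4 libraries were fitted (-1.14). The CXC genes resemble each other in sequence, and how reads that fit several genes were counted was not stated.

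NF-kB targets and feedback genes rose, 19 of 24 called higher and 2 lower, with a median log2 fold change of 1.31. Saa3, an acute phase apolipoprotein, reached 2038600 and 1937812 normalized counts against 13744 and 10665 (log2 fold change 7.35 ± 0.15, edgeR adjusted p = 2.2e-16). Lcn2, which binds bacterial siderophores, had 180130 and 173826 against 785 and 611 (7.99 ± 0.07, edgeR adjusted p = 3.4e-18). Acod1, which makes itaconate, had 104946 and 107026 against 10452 and 10001 (3.37 ± 0.05). The mitochondrial dismutase Sod2 rose by 3.12, the nuclear regulator Nfkbiz by 3.08 and the nitric oxide synthase Nos2 from 12.7 and 25.6 to 1044 and 1153 (5.82 ± 0.26). The inhibitor gene Nfkbie fell by 0.79 and Tnfaip2 by 0.42.

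The bases before the start sites of 4 of these genes are shown. These genes are among the larger rises of the NF-kB and chemokine lists and were chosen because they hold a kappaB-like word. The word searched was GGNNTTTCC, read on both strands, where N is any base, in windows from 250 bases before to 50 after the RefSeq start site (GRCm38.p6). It was present for 10 of the 19 list genes with a promoter entry (52.6%), for 6 of 13 chemokine genes (46.2%) and for 6.62% of all 27025 genes. The NF-kB list was made of known NF-kB feedback genes and targets, so its share describes the list and not the response. Lcn2, Sod2 and Ccl3 also rose strongly and had 0 matches. A match is a description of the letters and not evidence of binding. The 200 bases directly before each start site are printed 5′ to 3′ on the strand of the gene, with the word in capitals.
Saa3 (chr7:46715677-46715876, minus strand): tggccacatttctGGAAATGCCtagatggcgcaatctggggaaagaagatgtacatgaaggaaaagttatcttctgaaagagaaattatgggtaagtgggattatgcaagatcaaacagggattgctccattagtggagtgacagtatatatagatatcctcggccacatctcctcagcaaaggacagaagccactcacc
Cxcl3 (chr5:90785901-90786100, plus strand): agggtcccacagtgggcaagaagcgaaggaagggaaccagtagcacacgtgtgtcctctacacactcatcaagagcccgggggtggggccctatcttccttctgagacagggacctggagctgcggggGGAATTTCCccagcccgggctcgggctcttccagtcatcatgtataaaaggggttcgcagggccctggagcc
Cxcl1 (chr5:90891045-90891244, plus strand): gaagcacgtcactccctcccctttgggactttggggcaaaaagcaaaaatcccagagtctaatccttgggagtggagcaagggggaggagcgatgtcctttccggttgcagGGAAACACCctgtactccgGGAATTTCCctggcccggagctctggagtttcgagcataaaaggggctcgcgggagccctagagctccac
Acod1 (chr14:103046812-103047011, plus strand): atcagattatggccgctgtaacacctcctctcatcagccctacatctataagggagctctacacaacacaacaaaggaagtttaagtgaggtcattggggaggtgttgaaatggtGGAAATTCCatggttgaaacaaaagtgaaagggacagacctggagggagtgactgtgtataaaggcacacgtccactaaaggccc
The match lies 187 bases before the start in Saa3, 72 in Cxcl3, 85 in Acod1, and 89 and 70 in Cxcl1, which holds the word at both places.

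**Figure D2:**
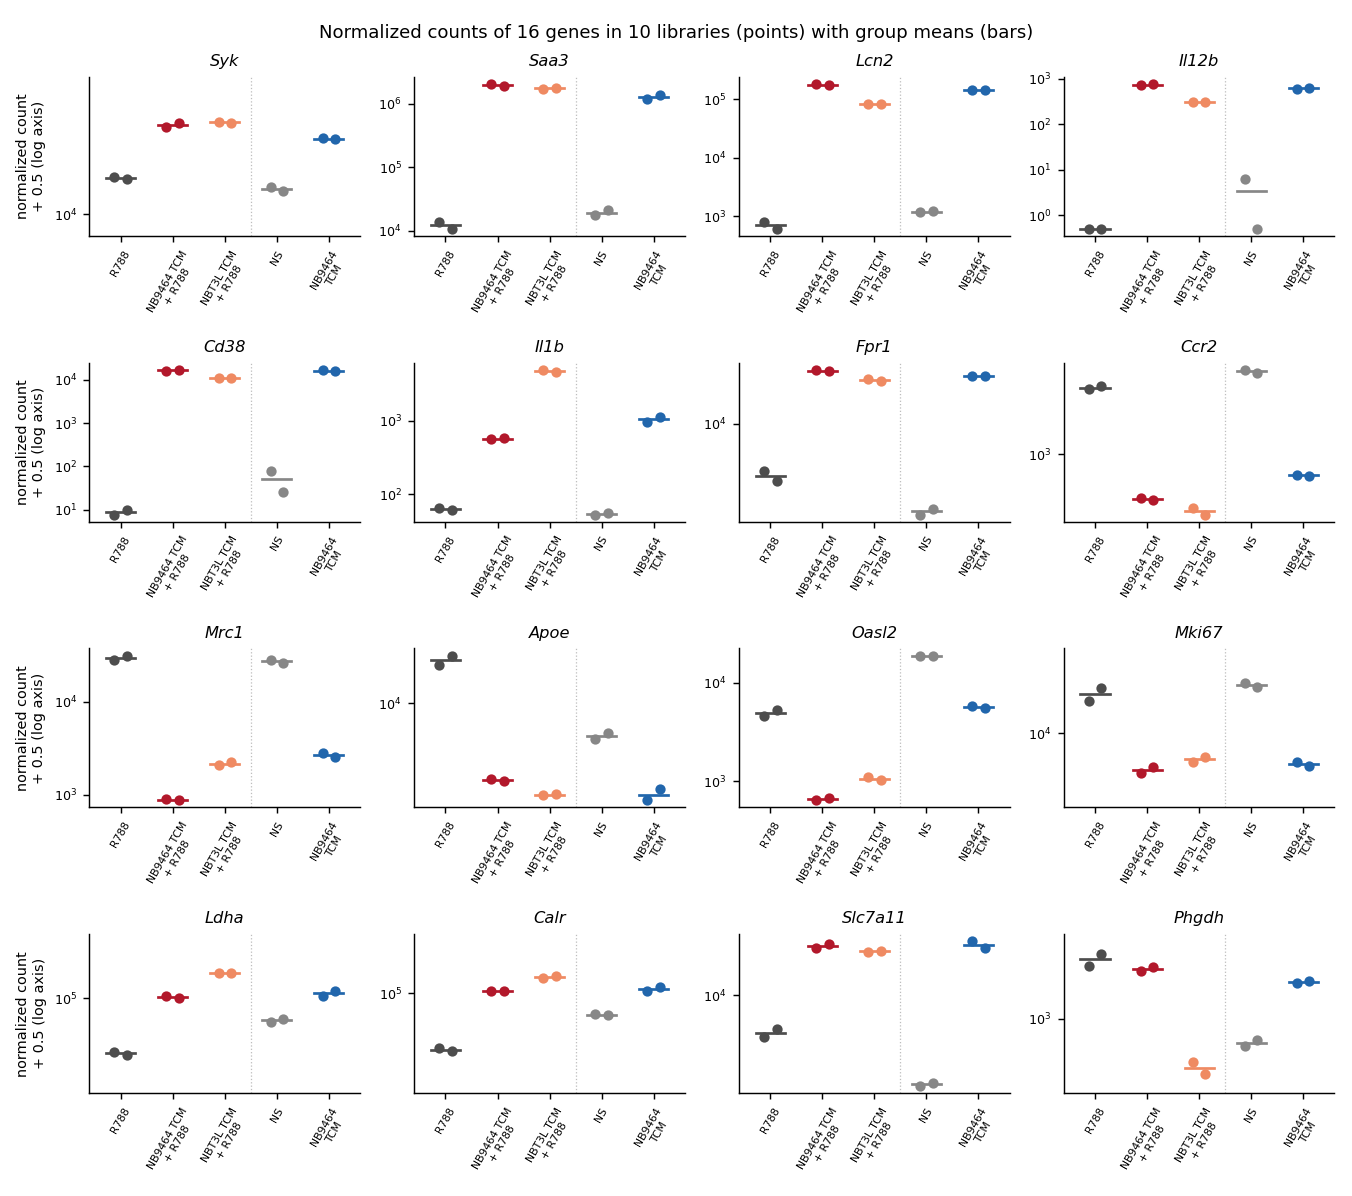
Normalized counts plus 0.5 (log axis) of 16 genes in 10 libraries, as points, with the mean of each group as a bar; groups right of the dotted line had no R788. The NB9464 TCM + R788 points lie above the R788 points in every panel for a gene that rose, such as Saa3, and below them for Ccr2, Mrc1, Apoe, Oasl2 and Mki67, while for Phgdh the groups lie close together (2158 and 2313 against 2347 and 2861).

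Receptors that guide macrophage movement changed in both directions. The formyl peptide receptors rose: Fpr1 had 31872 and 30933 normalized counts against 3598 and 2928 (log2 fold change 3.27 ± 0.08), and Fpr2 14588 and 13977 against 1650 and 1519 (3.17 ± 0.07). Several chemokine receptors fell: Cxcr4 had 276 and 136 against 3182 and 2710 (-3.84 ± 0.24), and Ccr2 386 and 370 against 4094 and 4375 (-3.49 ± 0.11). Ccr1 fell by 1.46. In all, 4 of 12 receptors were called higher and 7 lower, with a median of -0.84. Each receptor named was separated between the groups in all 4 libraries.

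Scavenger and efferocytosis receptors mostly fell, 9 of 14 called lower and 3 higher, with a median log2 fold change of -0.72. Marco, a scavenger receptor for bacteria and particles, was the exception in size, with 640613 and 641396 normalized counts against 62150 and 58006 (log2 fold change 3.42 ± 0.05, edgeR adjusted p = 3.4e-18). Besides Mrc1, the bridging molecule Gas6 fell from 19936 and 20253 to 1837 and 1635 (-3.53 ± 0.08), and the endocytic receptor Stab1 from 149283 and 159770 to 33809 and 35838 (-2.15 ± 0.05). The groups did not overlap for any of them. Axl, the receptor of Gas6, had 627 and 729 against 839 and 1313 (-0.67 ± 0.23, adjusted p = 0.0097), a call that was lost without SJ8 (-0.31) and without SJ9 (-0.56).

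Interferon-stimulated genes fell together. Of 28, 24 were called lower and 0 higher, with a median log2 fold change of -1.27; without SJ8, 23 were lower, 0 higher and the median was -1.36. Oasl2 had 640 and 669 normalized counts with NB9464 TCM + R788 and 4617 and 5300 with R788 (log2 fold change -2.92 ± 0.08, adjusted p = 1.2e-260). Cmpk2 had 157 and 184 against 1016 and 924 (-2.51 ± 0.13), and the antiviral GTPase Mx1 had a mean of 67.8 against 377 (-2.47 ± 0.22). Every one of these had both TCM libraries below both others. Among the 2′-5′ oligoadenylate synthetases, Oas3 fell by 2.34 and Oas2 fell by 2.25. Irf7, the factor that amplifies type I interferon transcription, fell by 1.91, and Ifit3 from 515 and 530 to 77.6 and 148 (-2.22 ± 0.20). Oas and Ifit genes lie in families of similar sequence, which could share reads.

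The promoters of Oas3 and Ifit3 are shown as those of the interferon list with the largest falls that hold the core of an interferon-stimulated response element. The word was GAAANNGAA on both strands, in the same windows, and occurred for 14 of 21 list genes with a promoter entry (66.7%) and for 9.76% of all genes. This list was made of known interferon-stimulated genes, so its share too describes the list and not the response. Oasl2 and Cmpk2, which fell more, had 0 matches. Capitals mark the word on either strand, and overlapping copies run together.
Oas3 (chr5:120777660-120777859, minus strand): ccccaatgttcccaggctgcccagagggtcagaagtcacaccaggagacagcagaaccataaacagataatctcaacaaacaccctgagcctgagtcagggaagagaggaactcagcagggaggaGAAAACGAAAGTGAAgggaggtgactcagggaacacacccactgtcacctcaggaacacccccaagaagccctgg
Ifit3 (chr19:34583329-34583528, plus strand): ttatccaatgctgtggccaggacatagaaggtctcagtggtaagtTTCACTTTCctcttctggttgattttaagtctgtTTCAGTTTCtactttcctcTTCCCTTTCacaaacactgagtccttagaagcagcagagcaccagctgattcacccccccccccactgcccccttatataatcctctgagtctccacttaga
Oas3 holds 2 copies that overlap and Ifit3 holds 3, all read from the opposite strand in Ifit3.

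Cell cycle genes fell in the tumor medium. All 24 mitotic genes were called lower, with a median log2 fold change of -1.78 (-1.76 without SJ8). Mki67 had 5293 and 5767 normalized counts against 16728 and 20861 (-1.77 ± 0.09), Top2a 4263 and 3774 against 14408 and 17113 (-1.97 ± 0.09), and the kinetochore gene Cenpf 274 and 347 against 2244 and 2728 (-3.01 ± 0.16). Plk1 fell by 2.07 and Ccna2 fell by 2.05. Of 28 DNA replication genes, 22 were called lower and 1 (E2f1, 0.24, a call lost without SJ9 at 0.22 and with only the 4 libraries fitted at 0.25) higher, with a median of -0.59. Thymidine kinase Tk1 had 2045 and 2224 against 5173 and 4995 (-1.25 ± 0.08), Pole fell by 1.16 and the helicase subunit Mcm6 by 0.67. Pcna had 9516 and 10229 against 11690 and 10866 (-0.19 ± 0.06, adjusted p = 0.0025), and its call was lost without SJ9 (-0.14) and when only the 4 libraries were fitted (-0.18).

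Glycolysis and HIF1A target genes rose, with 24 of 28 called higher and 1 (Vegfa) lower and a median log2 fold change of 0.98 (0.93 without SJ8). Pfkfb3, which drives flux through phosphofructokinase, had 12791 and 13421 normalized counts against 2080 and 2008 (2.68 ± 0.06). Ankrd37 had 845 and 795 against 150 and 119 (2.61 ± 0.19). It shares exonic bases on the opposite strand with the more abundant gene Ufsp2 (mean 3897), and the strand setting was not stated. Lactate dehydrogenase Ldha had 104617 and 100735 against 42239 and 40345 (1.31 ± 0.05, adjusted p = 2e-140). Both TCM libraries were above both others for each. Pgk1 rose by 1.58, Tpi1 by 1.25, Gapdh by 1.02 and Aldoa by 0.84. Vegfa, also a HIF1A target, had 2079 and 1853 against 2680 and 2150 (-0.30 ± 0.12, adjusted p = 0.036), and the call was lost without SJ7 (-0.13), without SJ10 (-0.22) and when only the 4 libraries (-0.29) or the 8 without NBT3L TCM (-0.30) were fitted.

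The E-box CACGTG, read by MYC-family and HIF factors, was searched in the same windows because glycolytic genes moved together. It is its own reverse complement, and it occurred for 3 of 25 list genes with a promoter entry against 8.09% of all genes. Ldha and Pfkfb3 are shown as list members that hold it, and each has another promoter entry with 0 matches.
Ldha (chr7:46845604-46845803, plus strand): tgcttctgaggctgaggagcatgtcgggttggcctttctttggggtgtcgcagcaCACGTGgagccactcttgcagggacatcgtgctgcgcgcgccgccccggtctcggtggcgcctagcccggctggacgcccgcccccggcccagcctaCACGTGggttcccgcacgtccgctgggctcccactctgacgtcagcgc
Pfkfb3 (chr2:11502091-11502290, minus strand): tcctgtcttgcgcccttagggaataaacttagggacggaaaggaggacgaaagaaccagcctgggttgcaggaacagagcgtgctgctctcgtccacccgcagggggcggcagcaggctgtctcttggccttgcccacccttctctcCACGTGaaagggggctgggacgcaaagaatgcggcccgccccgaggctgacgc
Capitals mark the E-box, which Ldha carries 145 and 48 bases before the start and Pfkfb3 53 bases before it.

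Chaperones of the endoplasmic reticulum (ER) rose, 19 of 20 genes of the unfolded protein response called higher and 1 lower, with a median log2 fold change of 0.94. Calr, the calcium-binding chaperone calreticulin, had 103261 and 103956 normalized counts against 41447 and 39546 (1.36 ± 0.04, adjusted p = 2.6e-200). Manf rose by 1.75, Sdf2l1 by 1.74, Hyou1 by 1.64 and the central chaperone Hspa5 from 36346 and 40206 to 79336 and 82994 (1.08 ± 0.05). Crebrf, a repressor in this response, was the gene that fell, from 1472 and 1847 to 657 and 937 (-1.06 ± 0.22). The same 19 higher and 1 lower were counted without SJ8.

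Iron and antioxidant genes rose in 13 of 21 cases and fell in 3, with a median log2 fold change of 0.53. Ferritin heavy chain Fth1 had 1702546 and 1618415 normalized counts against 618933 and 525172 (1.54 ± 0.07). The heme oxygenase Hmox1 had 101366 and 99988 against 29956 and 29104 (1.77 ± 0.04, edgeR adjusted p = 3e-15), and the glutathione reductase Gsr rose by 1.70. Ferroportin Slc40a1, the iron exporter, moved the other way, from 7477 and 7626 to 818 and 800 (-3.22 ± 0.09). Storage and heme breakdown transcripts were thus higher and the exporter lower in both TCM libraries than in both R788 libraries.

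Genes of the amino acid shortage program run by ATF4 showed no common direction, with 7 of 30 called higher, 5 lower and a median log2 fold change of 0.02, near the 20.7% and 19.6% of all genes. The count of lower genes was 2 without SJ8 and 3 without SJ9 or SJ10. Slc7a11, the cystine transporter, had 28852 and 31193 normalized counts against 3964 and 4713 (2.79 ± 0.08, adjusted p = 1.9e-250). Mthfd2 rose by 0.56 and Slc7a5 fell by 0.44. Asparagine synthetase Asns had 4294 and 4372 against 4618 and 4693 (-0.10 ± 0.08, adjusted p = 0.35). The serine synthesis enzyme Phgdh (-0.22 ± 0.16) and Trib3 (-0.22 ± 0.15) were not called either.

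Lipid genes were mixed. Sterol synthesis and uptake genes leaned lower, with 12 of 23 called lower and 4 higher (1 without SJ9, 2 without SJ10) and a median log2 fold change of -0.33. Msmo1 had 2695 and 2627 normalized counts against 4360 and 4449 (-0.73 ± 0.07). Among 16 genes of fatty acid synthesis and LXR targets, 7 were higher and 3 lower, with a median of 0.16. The desaturase Scd2 had 11877 and 13316 against 2246 and 2120 (2.53 ± 0.07), whereas apolipoprotein Apoe had 2752 and 2679 against 18913 and 22260 (-2.92 ± 0.10, adjusted p = 4.9e-197). These were the largest changes of the list, in opposite directions and without overlap. The cholesterol exporter Abcg1 rose by 0.73.

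Lysosomal genes fell more often than they rose, 17 of 26 against 8, with a small median of -0.17. Gpnmb had 249094 and 250304 normalized counts against 614564 and 617423 (log2 fold change -1.30 ± 0.03, adjusted p = 2.1e-304). The protease Ctss fell by 1.01 and prosaposin Psap by 0.54, whereas Ctsz rose by 0.81. Ctsz shares exonic bases with an expressed gene on the opposite strand.

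**Figure D3:**
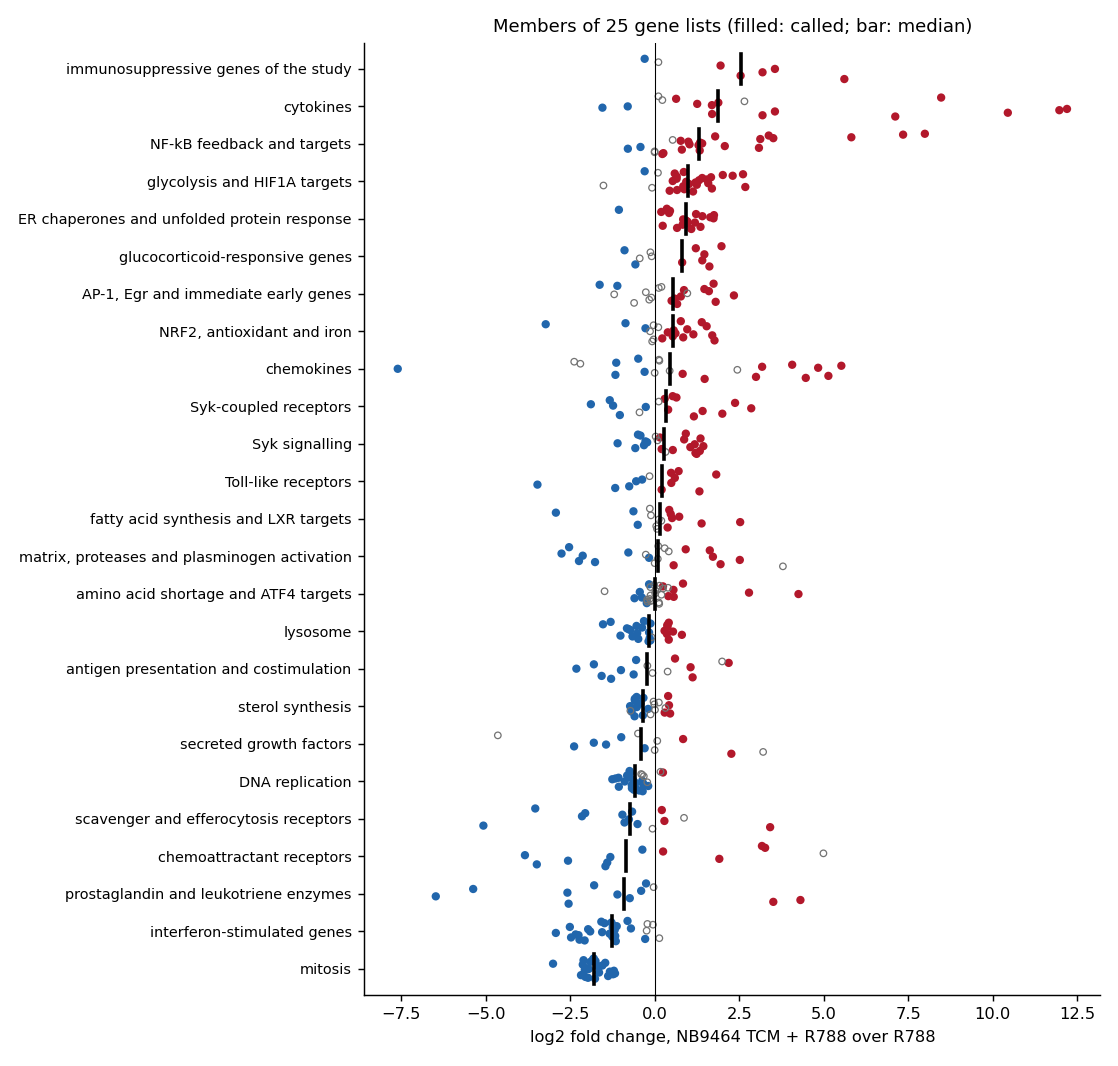
Log2 fold changes of NB9464 TCM + R788 over R788 for the tested members of 25 gene lists, ordered by the list median (black bar); filled points were called (red higher, blue lower) and open points were not. Medians run from 2.54 for the immunosuppressive genes of the study, 1.88 for cytokines and 1.31 for NF-kB genes down to -1.27 for interferon-stimulated genes and -1.78 for mitosis.

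The study names 7 genes as immunosuppressive, and that list was chosen on macrophages of the same work, so its count is not independent evidence. With R788 present 5 were called higher and 1 lower after NB9464 TCM, and the median of 2.54 became 1.95 with Ido1 at its bound. Arg1 had 133 and 124 normalized counts against 23.6 and 20.8 (log2 fold change 2.54 ± 0.30, adjusted p = 3.1e-16), Mmp9 3988 and 3804 against 961 and 1055 (1.95 ± 0.08), and Il10 and Il1b rose as given above. Tgfb1 had 24380 and 23916 against 23101 and 21619 (0.11 ± 0.05, adjusted p = 0.057) and was not called, except in the fit without SJ7 (0.16). Ido1 was at 0 with R788 and at 11.9 and 3.33 with TCM (adjusted p = 0.04), and its call was lost without any 1 of the 4 libraries and in the edgeR test. Vegfa, the gene that fell, is described above.

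Antigen presentation genes fell in 7 of 15 cases and rose in 4, with a median log2 fold change of -0.22, and the higher count was near the 20.7% of all genes. Cd274, which encodes the checkpoint ligand PD-L1, had 6852 and 6910 normalized counts against 1534 and 1484 (log2 fold change 2.19 ± 0.07, adjusted p = 3.1e-216). Cd40 rose by 1.06, while the other costimulator Cd86 fell from 819 and 935 to 247 and 258 (-1.80 ± 0.22). MHC class II genes disagreed in direction: H2-Ab1 had 2204 and 2139 against 1017 and 980 (1.12 ± 0.14), and H2-Eb1 had 250 and 174 against 753 and 508 (-1.57 ± 0.30). The invariant chain Cd74 fell from 5428 and 6486 to 2951 and 3021.

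Enzymes of the prostaglandin and leukotriene pathways were lower in 9 of 12 cases and higher in 2, with a median log2 fold change of -0.92. Some of the 9 lower calls were lost without SJ8. The 2 that rose make prostaglandin E2. Ptges had 10989 and 11189 normalized counts against 575 and 543 (log2 fold change 4.31 ± 0.07), and Ptgs2, the inducible cyclooxygenase, had 416 and 447 against 39.1 and 36.7 (3.51 ± 0.25). The constitutive cyclooxygenase Ptgs1 fell from 2897 and 2744 to 436 and 531 (-2.55 ± 0.22), and Alox5, the first enzyme of leukotriene synthesis, from 4689 and 4417 to 810 and 711 (-2.58 ± 0.12). Hpgd, which degrades prostaglandin E2, fell as given above.

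Matrix and protease genes split 6 higher and 7 lower of 20, beside 20.7% and 19.6% of all genes, with a median log2 fold change of 0.10 (0.05 with a gene at the floor set to its bound). The membrane protease Mmp14 had 28859 and 28738 normalized counts against 4939 and 5114 (log2 fold change 2.52 ± 0.05), Thbs1 rose by 0.92 and Mmp8 by 0.56. Osteopontin Spp1 had 3791 and 4019 against 23319 and 21817 (-2.53 ± 0.05, edgeR adjusted p = 2e-15), and the urokinase Plau 704 and 565 against 4298 and 4289 (-2.76 ± 0.11), with its receptor Plaur lower by 0.78. The urokinase inhibitor Serpinb2 had 203 and 271 against 92.7 and 60.7 (1.63 ± 0.35). It shares exonic bases on the same strand with Serpinb10 (mean 228 normalized counts). How shared reads were counted was not stated, which also limits the values of Serpinb2 below. Of 12 secreted growth factors 2 rose (1 without SJ8, SJ9 or SJ10), a share near that of all genes, and 5 fell, with a median of -0.40. Endothelin Edn1 had 100 and 121 against 23.6 and 22.4 (2.27 ± 0.35), Igf1 fell by 1.80 and Pdgfa by 2.38.

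Pattern recognition and early response genes completed the picture. Of 13 Toll-like receptor genes 7 rose and 5 fell, with a median log2 fold change of 0.21. The co-receptor Cd14 had 44625 and 43636 normalized counts against 13449 and 11541 (log2 fold change 1.82 ± 0.06), Tlr1 rose by 1.32 and Tlr2 by 0.21, while Tlr5 had 27.9 and 37.8 against 339 and 385 (-3.47 ± 0.44) and Tlr4 fell by 0.75. Of 20 AP-1, Egr and immediate early genes 10 rose and 2 (4 without SJ9) fell, with a median of 0.55. Egr1 had 87.5 and 87.8 against 25.4 and 9.58 (2.34 ± 0.42), Maff rose by 1.74, Atf3 by 0.77 and Fos by 0.66, while Spry2 fell by 1.63 and Dusp6, which also dampens ERK, by 1.10. Among 11 glucocorticoid-responsive genes 6 rose and 2 fell, with a median of 0.81, led by Fkbp5 with 4778 and 5166 against 1541 and 1696 (1.62 ± 0.09) and Dusp1 (1.47). Some of the 6 calls were lost without SJ8. Cd163 fell by 0.89 and Tsc22d3 by 0.57.

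The response to NB9464 TCM with R788 was next set beside the response without it. Without R788, NB9464 TCM against NS gave 2805 genes (17.2%) called higher and 2747 (16.9%) lower, 34.1% together, and 973 (5.98%) and 887 (5.45%) passed a 2-fold change. The comparisons share no library. Of the 973 genes raised at least 2-fold without R788, 631 were also raised at least 2-fold with R788, which is 64.9% of that list and 55.3% of the 1142 raised with R788. Of the 887 lowered, 610 were also lowered, 68.8% of that list and 53.9% of the 1132 lowered with R788. When the fold minimum was dropped for the second list, 739 (76.0%) of the raised genes were called in the same direction with R788. So were 737 (83.1%) of the lowered genes, and 10 raised and 3 lowered genes were called in the opposite direction. Over all genes tested, the shares with R788 were 7.01% raised and 6.95% lowered at least 2-fold. Without a fold minimum they were 20.7% and 19.6%.

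The difference between the responses was tested as an interaction, the log2 fold change with R788 minus that without. It was called positive for 1013 genes (6.22%) and negative for 1019 (6.26%), 12.5% together, and for 948 (5.82%) and 867 (5.33%) without SJ8, 11.1% together. The positive count was 1662 without SJ7, 644 without SJ2 and 639 without SJ9. A difference of at least 2-fold was called for 164 (1.01%) and 219 (1.35%). Among the positive genes, 293 rose in both settings, 339 rose with R788 and were not called without, 187 were not called with R788 and fell without, and 127 fell in both. Among the negative genes, 226 fell in both, 307 fell with R788 and were not called without, 187 rose without R788 and were not called with it, and 199 rose in both. Opposite calls were made for 53 positive and 79 negative genes.

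**Figure D4:**
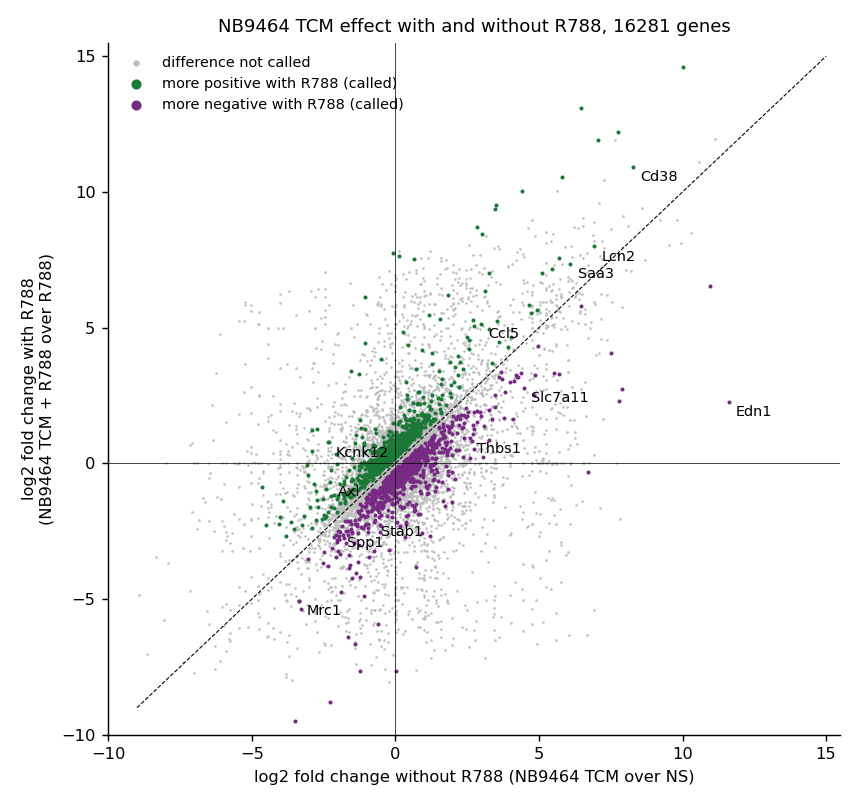
Log2 fold change of NB9464 TCM without R788 (x axis, over NS) and with R788 (y axis, over R788) for the tested genes; the dashed line marks equal changes, and colored genes had a called difference (green more positive, purple more negative with R788). Mrc1 and Stab1 lie below the line, and Lcn2, Ccl5 and Cd38 above it; no correlation was computed.

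The most positive fitted differences among well expressed genes were in Draxin (6.62), Fcrl5 (4.84), Zfp811 (4.76), U90926 (4.57), Il12b (4.44) and Kcnk12 (3.12), as differences of log2 fold changes. For the first 5 the R788 group was at or under the floor of 3 counts per library, and with the floor in its place the differences were at least 2.59, 0.82, 3.19, 0.55 and 0.40, against 3.12 for Kcnk12. With all libraries kept, the edgeR test did not call Fcrl5, U90926 or Il12b (adjusted p = 0.063, 0.067 and 0.08). Halved counts in DESeq2 lost these calls too. The size of the first 5 differences also rests on a single NS library with a few counts. Without that library the difference was 1.17 for Draxin, 1.40 for Fcrl5, 1.87 for Zfp811 and 0.54 for U90926 (each without SJ2), and 0.42 for Il12b (without SJ1), and none of these was called. Kcnk12, a potassium channel gene, had 452 and 393 normalized counts in NS and 113 and 53.9 in NB9464 TCM, but 141 and 67.9 in R788 and 215 and 143 in NB9464 TCM + R788. It fell without R788. With R788 both TCM libraries were above both others, the lower TCM library by a small margin. That change was 0.78 on the log2 scale and was not called (adjusted p = 0.13), and it was 0.35 without SJ8. The level with R788 alone was already below that of NS, and this enters the difference. The difference was 3.12 ± 0.59 (SE, adjusted p = 3.4e-06).

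The most negative fitted differences were in Edn1 (-9.34), Ifi213 (-6.00), Cxcl5 (-3.44), Ptger3 (-2.94), Rgs7bp (-2.84) and 1700071M16Rik (-2.82). Edn1 and Ifi213 each had a group at 0, and with that group at the floor of 3 counts per library their differences were at most -5.31 and -1.97, which places Ifi213 below the other 5 in size. Edn1 went from 0 and 0 in NS to 564 and 520 in NB9464 TCM, and from 23.6 and 22.4 in R788 to 100 and 121, so both the higher level with R788 alone and the lower level with both treatments enter the difference. Ifi213, an interferon-inducible gene, fell from 907 and 929 to 84.2 and 79.9 without R788, and from 130 and 147 to 0 and 0 with it. The prostaglandin E2 receptor Ptger3 had 116 and 80.6 in NS and 87.0 and 80.8 in NB9464 TCM, against 268 and 561 in R788 and 27.9 and 64.4 with both. Ptger3 fell by 3.17 with R788 and was not called without it, and the difference itself had an adjusted p of 0.00023. 1700071M16Rik lies opposite to exons of Pla2g7, an abundant gene, and cannot be told apart from it without strand.

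Several gene groups leaned to a side in this difference, read against the 6.22% and 6.26% of all genes. Those shares count the 3472 genes with no adjusted p as not called. Glycolysis and HIF1A targets were positive in 15 of 28 cases and negative in 1 (15 and 0 without SJ8). Tpi1 rose by 1.25 with R788 and by 0.44 without, a difference of 0.81 ± 0.06 (adjusted p = 5.2e-33), with lower levels in R788 (21378 and 20274) than in NS (35416 and 37060) and similar levels in the TCM groups. ER chaperones were positive in 9 of 20 and negative in 1, mitotic genes positive in 9 of 24 and replication genes in 8 of 28, with 0 negative in either. The mitotic count was 3 without SJ1, 4 without SJ2 or SJ9 and 5 without SJ4 or SJ10, and the replication count was 4 without SJ2, SJ3, SJ9 or SJ10 and 5 without SJ1 or SJ4. The matrix list was negative in 10 of 20 with 0 positive, ATF4 targets negative in 11 of 30 with 1 positive, and NF-kB genes negative in 10 (6 without SJ2 or SJ10) and positive in 4 of 24. Phgdh had 648 and 713 in NS and 1779 and 1837 in NB9464 TCM, but already 2347 and 2861 with R788 alone. Its change was 1.41 without R788 and -0.22 with it, a difference of -1.63 ± 0.22 (adjusted p = 2.2e-11).

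The medium of NB9464 cells was last compared with that of NBT3L cells, both with R788, which asks what differed between media of lines with and without MYCN amplification. Of all genes, 575 (3.53%) were higher with NB9464 TCM and 992 (6.09%) lower, 9.62% together, and 139 (0.854%) and 155 (0.952%) passed a 2-fold change. This comparison shares SJ9 and SJ10 with the main one. With 1 library left out at a time these counts fell to between 317 and 350 higher and between 534 and 661 lower. How NBT3L TCM was prepared was not described, and there was 1 medium of each line as far as stated, so the amplification and any other difference between the lines or media cannot be told apart.

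Amino acid shortage genes were higher with NB9464 TCM, 21 of 30 called higher and 1 lower, with a median log2 fold change of 0.76 against -0.01 for all genes. Chac1, a glutathione-degrading enzyme, had 521 and 484 normalized counts against 33.9 and 54.3 with NBT3L TCM + R788 (3.51, adjusted p = 1.6e-28). Trib3 had 1389 and 1484 against 270 and 224 (2.54), Phgdh 2158 and 2313 against 498 and 412 (2.30), and Asns 4294 and 4372 against 1263 and 1115 (1.87, adjusted p = 9.8e-96). None of these 4 was called between NB9464 TCM + R788 and R788, where Asns had 4618 and 4693 with R788 alone, and the NBT3L TCM + R788 libraries were the low ones. Glucocorticoid-responsive genes were higher in 6 of 11 cases and lower in 0, among them Klf9 (650 and 574 against 76.3 and 39.2; 3.41), Fkbp5 (2.38) and Tsc22d3 (1.95). Tubb3 (3.03), Hif3a (2.65) and AI506816 (2.53) were the other large rises.

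Il1b was the largest of the called falls named, with 569 and 580 normalized counts for NB9464 TCM + R788 against 4922 and 4614 for NBT3L TCM + R788 (log2 fold change -3.05, adjusted p = 1.8e-182). Serpinb2 (-2.61), Pdpn (-2.03), Serinc2 (-2.02, adjusted p = 0.047), Selenow (-1.95) and Ccl7 (1720 and 1712 against 6643 and 6279; -1.91) followed, and the call of Serinc2 was lost without SJ10 (-1.47), SJ11 (-2.01) or SJ12 (-2.04). Interferon-stimulated genes were lower in 20 of 28 and higher in 0, with a median of -0.69. Glycolysis and HIF1A targets were lower in 22 of 28 and higher in 0, with a median of -0.39, and Ldha had 104617 and 100735 against 149449 and 151244. Of 21 chemokines 10 were lower and 2 (1 without any 1 of the 4 libraries) higher, and of 24 mitotic genes 3 were lower. Lcn2 was higher with NB9464 TCM, 180130 and 173826 against 82093 and 84055 (1.09, adjusted p = 1.3e-65).

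**Figure D5:**
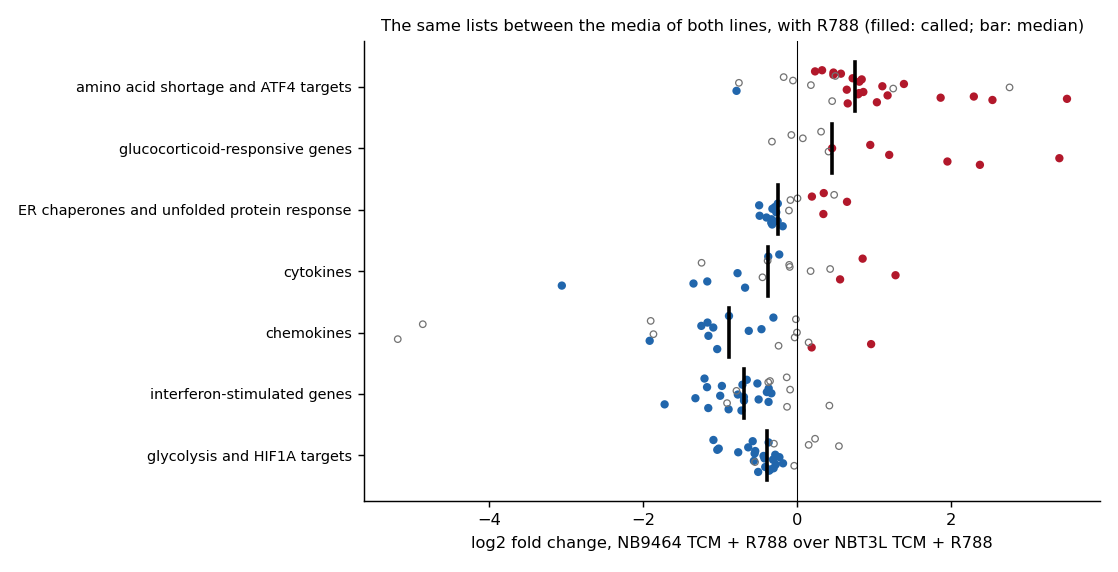
Log2 fold changes of NB9464 TCM + R788 over NBT3L TCM + R788 for the members of 7 gene lists; filled points were called (red higher, blue lower), open points were not, and black bars are medians. The amino acid shortage list lies mostly to the right of 0 (median 0.76), and interferon-stimulated genes (-0.69), chemokines (-0.88) and glycolysis genes (-0.39) mostly to the left.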

How the data were processed

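Poly(A)-selected RNA of BMDMs was sequenced, and the authors deposited 1 table of whole-number read counts, with 54232 Ensembl genes and 12 libraries and no scaling for depth or length. According to the methods of the study, STAR mapped the reads to mm10 and Salmon quantified them in a bcbio pipeline. The submitters' processing notes list STAR 2.6.1d and Salmon 1.4.0. How whole numbers came from the estimates of Salmon, the strand setting and the handling of reads that match several genes are not given in the sources used here. Reads are paired-end in the labels but single in the methods, and 65.2% to 67.9% of the counts between 1 and 40 were even, so an alternative with halved counts was run. Symbols and positions are from GENCODE M21 (mm10), 1-based.

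Groups came from the labels, with 2 libraries each. Genes that reached 10 counts in 2 or more libraries were tested in R 4.3.3 with DESeq2 1.42.0, as in the study, with median-of-ratios scaling, a single fit of the 6 group means over all 12 libraries and two-sided Wald tests. Log2 fold changes were not shrunken and are given with their standard error (SE). Benjamini-Hochberg adjustment was made per comparison, and an adjusted p under 0.05 was called. Where that p was too small to be written, that of the quasi-likelihood test of edgeR 4.0.16 is given. For the interaction 3472 genes, and for NB9464 against NBT3L medium 1263, had no adjusted p and count as not called. Values are normalized counts unless stated. The fits were tested on simulated data.

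The genes described and the gene lists were chosen with earlier results of these data known. Lists are described by counts and, in the main comparison, medians, beside those of all genes, with no test. Bounds set a group at or under 3 counts in each library to that floor. The text names Syk, and from each list the members with the highest counts, the largest changes or a called interaction. It also names, among called genes that average 100 or more normalized counts and move one way in all library pairs, the 10 largest rises and falls of the main comparison and 6 of each in the others. Other members named, and the cell type markers, were chosen after their values were seen. Other list members enter the counts only, and some are not reported here by name. Promoters are from RefSeq (GRCm38.p6), without chromosome 18. Alternatives were edgeR with TMM scaling, TMM within DESeq2, other count filters, a 2-fold minimum, halved counts, fits of fewer groups, and leaving out each library.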

Additional observations from a re-analysis of the deposited data

Results flagged for a closer look

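The NB9464 TCM effect differed between cells with and without R788 for 98 of the genes named, by the interaction test across all genes (DESeq2, adjusted p under 0.05; n = 2 libraries per group). Each value below is the fitted log2 fold change with R788 minus that without, given for genes with a called difference and so not for whole lists. Among Syk pathway genes and receptors the difference was 0.64 for Fcer1g, 0.34 for Vav1, 1.05 for Pik3ap1, 1.34 for Blnk, -0.62 for Vav3, -0.23 for Inpp5d, 0.80 for Fcgr4, 1.32 for Fcgr1 and -0.35 for Fcgr3. The list of 16 Syk-coupled receptors had 2 called positive and 7 negative. For cytokines it was 4.44 for Il12b, 1.49 for Il10, 0.28 for Tnf, -1.09 for Il1b and 0.69 for Il1rn. Chemokines gave 0.85 for Ccl3, 2.15 for Ccl5, -1.04 for Cxcl2, -3.44 for Cxcl5, -1.11 for Ccl6 and -0.37 for Ccl7. Receptors of chemoattractants gave -0.95 for Fpr1, -0.42 for Fpr2 and -1.35 for Ccr1. In that list of 12 receptors, 4 were called positive and 3 negative. NF-kB genes differed by 1.25 for Saa3, 1.07 for Lcn2, -0.31 for Acod1, -0.58 for Sod2, 1.16 for Nos2, -0.71 for Nfkbie and -0.77 for Tnfaip2. Interferon-stimulated genes differed by -1.19 for Oasl2, -0.84 for Cmpk2, -1.15 for Oas3, -1.30 for Oas2 and -6.00 for Ifi213. The interferon list of 28 genes had 5 called positive and 8 negative. In early response genes the values were 1.44 for Fos, 0.93 for Atf3, -1.11 for Dusp6, -1.17 for Spry2 and 0.63 for Dusp1. Antigen presentation and scavenging genes showed 0.89 for Cd40, -1.67 for Cd86, -1.72 for Mrc1, -0.50 for Gas6, -1.40 for Stab1 and 1.60 for Axl. Glycolysis and HIF1A targets gave 1.82 for Ankrd37, 0.69 for Ldha, 0.81 for Tpi1, 0.78 for Pgk1, 0.59 for Gapdh and 0.41 for Aldoa. Lipid genes gave 1.27 for Scd2, -1.49 for Apoe and 0.87 for Abcg1. Amino acid genes gave -1.69 for Slc7a11, -1.63 for Phgdh, -0.65 for Asns, -0.76 for Trib3 and -0.75 for Slc7a5. ER chaperones gave 0.75 for Calr, 0.58 for Manf, 0.68 for Sdf2l1, 0.25 for Hyou1 and 0.33 for Hspa5. Iron and lysosome genes gave -1.22 for Slc40a1, -0.46 for Gpnmb and -0.56 for Psap. The lysosome list of 26 genes had 4 called positive and 6 negative. Cell cycle genes gave 0.30 for Tk1, 0.88 for Pcna and 0.49 for Plk1. Matrix genes gave -0.96 for Mmp14, -1.69 for Thbs1, -0.59 for Spp1, -1.32 for Mmp8, -0.997 for Plaur and -2.46 for Serpinb2. Growth factor, glucocorticoid-responsive and Toll-like receptor genes gave -9.34 for Edn1, 0.25 for Igf1, 1.11 for Fkbp5, -1.44 for Cd163, -0.35 for Tsc22d3, 0.93 for Cd14 and -0.64 for Tlr2. For eicosanoid enzymes and a receptor the values were -0.64 for Ptges, -1.07 for Alox5, -1.04 for Ptgs1 and -2.94 for Ptger3. The remaining genes with the largest changes gave 4.57 for U90926, 6.62 for Draxin, 4.84 for Fcrl5, 2.64 for Cd38, 4.76 for Zfp811, -1.72 for St6gal1, -2.84 for Rgs7bp, -2.69 for Abcb1a, 3.12 for Kcnk12 and -2.82 for 1700071M16Rik. With groups at or under 3 counts per library set to that floor, the difference was at most -5.31 for Edn1 and -1.97 for Ifi213, and at least 2.59 for Draxin, 0.82 for Fcrl5, 3.19 for Zfp811, 0.55 for U90926 and 0.40 for Il12b.

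With all libraries kept, the edgeR test lost the interaction call for Il12b, U90926, Fcrl5, Abcb1a, Fcgr3, Tnf, Tk1, Igf1, Tsc22d3 and Inpp5d. Halved counts lost it for Il12b, U90926, Fcrl5, Tnf and Tk1. A fit of only the 8 libraries without NBT3L TCM lost it for Fcer1g, Fcgr3, Tnf, Hyou1, Tk1, Igf1, Draxin, Zfp811, Abcb1a and Inpp5d. Of the flagged genes, 19 lost the call when 1 of the 8 libraries was left out. They were Fcer1g (without SJ2, SJ3, SJ9 or SJ10, 0.59 to 0.65), Fcgr3 (without SJ1, SJ2, SJ3, SJ4, SJ7 or SJ10, -0.37 to -0.17), Il12b (without SJ1, SJ3, SJ7, SJ8 or SJ9, 0.42 to 4.53), Tnf (without SJ2, SJ3, SJ4, SJ8, SJ9 or SJ10, 0.19 to 0.30), Nos2 (without SJ7, 0.77), Hyou1 (without SJ1, SJ3 or SJ10, 0.21 to 0.22), Tk1 (without SJ1, SJ2, SJ3, SJ4, SJ8, SJ9 or SJ10, 0.23 to 0.36), Plk1 (without SJ1, SJ2, SJ4, SJ8 or SJ9, 0.45 to 0.52), Igf1 (without SJ1, SJ2, SJ4, SJ7, SJ9 or SJ10, 0.19 to 0.26), Tsc22d3 (without SJ1, SJ2, SJ3, SJ8, SJ9 or SJ10, -0.37 to -0.29), Ptgs1 (without SJ9, -0.90), U90926 (without SJ2, SJ7 or SJ8, 0.54 to 4.67), Draxin (without SJ2, SJ3, SJ4, SJ8, SJ9 or SJ10, 1.17 to 6.70), Fcrl5 (without SJ2, SJ7 or SJ8, 1.40 to 4.93), Zfp811 (without SJ2, SJ3, SJ4, SJ8, SJ9 or SJ10, 1.87 to 4.82), Rgs7bp (without SJ1, SJ4 or SJ10, -2.42 to -2.19), Abcb1a (without SJ1, SJ2, SJ4 or SJ10, -2.76 to -1.72), Ifi213 (without SJ2, -6.01) and Inpp5d (without SJ2, SJ3, SJ8, SJ9 or SJ10, -0.25 to -0.17).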

How the results depend on the processing

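No paired analysis was possible because the libraries are named SJ1 to SJ12 in sequence and no groups share a replicate number. The numbers of genes called higher and lower after NB9464 TCM with R788 (3378 and 3198) were 2676 to 3717 and 2643 to 3079 with 1 library left out, and 2626 to 3338 and 2533 to 3259 under edgeR, TMM scaling, other filters, halved counts and fits of fewer groups. A 2-fold minimum left 1142 and 1132, and 164 positive and 219 negative interactions. Of all calls, 51.4% were in the higher direction, between 49.8% and 54.7% under the alternatives. The interaction counts (1013 and 1019) were 639 to 1662 and 697 to 1305 with 1 library left out. The positive count moved by over 1.5 times without SJ2 (644), SJ7 (1662) or SJ9 (639). For NB9464 against NBT3L medium (575 and 992) a 2-fold minimum left 139 and 155, and leaving out SJ9, SJ10, SJ11 or SJ12 left 350, 333, 328 and 317 higher and 624, 661, 536 and 534 lower. The other settings gave 452 to 744 and 744 to 1027. A fit with 1 library in a group assumes that it varies like the other groups. Genes raised or lowered in both settings (631 and 610) numbered 547 to 659 and 543 to 595 with 1 library left out and 2026 and 2008 with no fold minimum. The cause of these moves was not tested, except that a fold minimum admits fewer genes by construction. Of 156 genes named for the main comparison, 8 changed their call in at least 1 alternative, and 0 changed sign. Of 275 list medians under the alternatives, 33 moved by more than their spread over library pairs, more of them without SJ7 than under any other alternative. The cytokine median was 2.80 without SJ7, those of chemoattractant receptors and chemokines -1.32 and 1.15 when genes below a mean of 50 counts were dropped, and the ATF4 median changed sign without SJ10 (-0.045). Depth and 2 libraries per group limit the precision for genes with few counts.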
